A study of Mus musculus with 6 samples.

Results

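The regions described here are stretches of chromatin inside very long genes that held a peak of an assay for Arid3a in all 6 libraries. Peaks of the 6 deposited peak lists were merged into 79295 union regions wherever they overlapped by at least 1 bp, and 29602 of these (37.3%) held a peak of every library. Of the 29602 shared regions, 1687 (5.70%) lay wholly inside the body of a protein-coding gene longer than 300 kb and more than 5 kb from either end of it. They are called the long-gene regions below. They were thus selected on peak presence in all 6 lists together with gene length and position, so their number per gene and their presence in every library are given as descriptions, with no test.

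Arid3a is a transcription factor whose AT-rich interaction domain (ARID) binds AT-rich DNA. The assay was CUT&Tag, in which an antibody against the protein brings a Tn5 transposase to chromatin and the DNA fragments cut there are amplified and sequenced. Primary vascular smooth muscle cells (VSMCs) of the mouse, which contract and relax to set vessel tone, were assayed with 10000 cells per library. Of the 6 libraries, 3 carry the label of a negative control siRNA (NC 1 to 3) and 3 that of siRNA against Arid3a (siRNA 1 to 3). The treatment labels of the latter are each numbered, and do not say whether the numbers mark replicates or different siRNAs. They were analysed as 1 group. Cells were transfected for 24 h. The labels also describe exposure of such cells to angiotensin II as a culture model of abdominal aortic aneurysm, without giving the exposure of each library, and name no strain, age or sex of the source animals. Whether the replicates were separate cultures is not stated, so p-values between groups cover the spread of these libraries alone, and that spread may be technical. Inside all 6 lists the peaks are named after the opposite group, with the same number. The libraries are therefore called NC-labelled or siRNA-labelled, and if the peak names rather than the labels held, every direction between the groups would be opposite. No file here measures Arid3a itself, so the knockdown could not be checked. None of the 6 libraries is labelled as a control for the antibody, so the share of peaks that reflects Arid3a binding was not tested.

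The lists held 43834 to 51682 peaks. Total reads were not used here, and the fragments stacked at a peak's summit, solved from the authors' deposited fold and p-value, stand in for depth: at the median shared region these numbered 28 to 30 for NC-labelled and 21 to 26 for siRNA-labelled libraries. Background coverage was 0.621 to 0.673 fragments for NC-labelled against 0.475 to 0.538 for siRNA-labelled libraries, so group and coverage cannot be told apart. A peak within 1 kb of a gene end was found in each library for 5 to 7 of 10 smooth muscle markers, with none in any library at Myh11, Des and Synpo2. The same count was 2 to 3 of 6 for fibroblast, 0 to 2 of 7 for endothelial, 2 to 4 of 6 for leukocyte and 1 of 6 for neuronal markers. Acta2, Tagln, Cald1, Lmod1 and Smtn had one in all 6 libraries, as did Dcn, Col1a1, Cd68, Cd14 and Tubb3 of the other lists. No pair of lists shared more than 0.628% of their intervals exactly, so no list was a copy of another. All 6 were counted as separate samples, though this check cannot show that they came from separate cultures.

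As background, most of the body of a very long gene is intron, and introns hold enhancers, which are short stretches where transcription factors bind and act on the host gene or on a distant neighbour, as well as alternative start sites of the host and whole small genes. Many of the longest genes of mammals encode synaptic proteins and cell adhesion molecules of neurons, while others encode transcription factors, signalling enzymes and cytoskeletal linkers that muscle cells use. A factor that binds AT-rich DNA may meet such sequence in any of them.

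No genome of the peaks' build was given, so the sequence under most long-gene regions could not be read. RefSeq start windows of mm10 (GRCm38) were at hand for 300 bases around annotated gene starts, and 58 of the 1687 regions (3.44%) overlapped one. The 250 bases upstream of the start are shown for 9 of these windows, because they are the part of the long-gene regions where sequence and signal can be set side by side: they include the 7 strongest regions at a start of the host by their smallest percentile (Gphn, Iqsec1, Ltbp1, Palld, Adk, Sgcd, Dst), the start inside Foxp1, the gene with the most regions, and the start of Dhrs3 inside Vps13d, one of the few regions that differed between the groups. Each window lies wholly inside a long-gene region. Capitals mark ATTAA or its reverse complement TTAAT, a short AT-rich word, and TGANTCA, the word of AP-1 sites, which reads the same on both strands. The sequences run 5′ to 3′ on the strand of the gene that starts there.
Gphn, chr12:78226405-78226654, plus strand: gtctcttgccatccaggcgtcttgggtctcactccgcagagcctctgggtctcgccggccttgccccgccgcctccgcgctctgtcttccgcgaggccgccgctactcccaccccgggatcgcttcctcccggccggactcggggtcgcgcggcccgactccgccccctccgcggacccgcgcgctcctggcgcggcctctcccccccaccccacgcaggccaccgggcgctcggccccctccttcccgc
Iqsec1, chr6:90716530-90716779, minus strand: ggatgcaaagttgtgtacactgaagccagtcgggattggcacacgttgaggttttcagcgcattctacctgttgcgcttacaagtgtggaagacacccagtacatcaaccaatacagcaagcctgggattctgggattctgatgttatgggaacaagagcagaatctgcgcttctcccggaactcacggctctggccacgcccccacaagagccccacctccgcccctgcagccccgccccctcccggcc
Ltbp1, chr17:75178531-75178780, plus strand: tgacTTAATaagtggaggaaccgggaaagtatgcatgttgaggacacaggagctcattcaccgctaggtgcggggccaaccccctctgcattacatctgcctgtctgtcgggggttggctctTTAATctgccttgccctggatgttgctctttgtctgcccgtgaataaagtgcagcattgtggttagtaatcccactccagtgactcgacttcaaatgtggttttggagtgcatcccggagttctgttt
Palld, chr8:61591140-61591389, minus strand: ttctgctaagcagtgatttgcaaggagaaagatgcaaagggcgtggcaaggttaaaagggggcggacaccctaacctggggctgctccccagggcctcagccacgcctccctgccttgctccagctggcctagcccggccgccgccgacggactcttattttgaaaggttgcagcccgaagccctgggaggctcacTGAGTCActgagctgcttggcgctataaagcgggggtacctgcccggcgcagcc
Adk, chr14:21075902-21076151, plus strand: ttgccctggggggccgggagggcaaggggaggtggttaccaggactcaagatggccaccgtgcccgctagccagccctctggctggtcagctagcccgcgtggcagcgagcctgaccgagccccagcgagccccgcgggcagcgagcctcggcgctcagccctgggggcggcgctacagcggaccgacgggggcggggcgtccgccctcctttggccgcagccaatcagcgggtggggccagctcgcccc
Sgcd, chr11:47379326-47379575, minus strand: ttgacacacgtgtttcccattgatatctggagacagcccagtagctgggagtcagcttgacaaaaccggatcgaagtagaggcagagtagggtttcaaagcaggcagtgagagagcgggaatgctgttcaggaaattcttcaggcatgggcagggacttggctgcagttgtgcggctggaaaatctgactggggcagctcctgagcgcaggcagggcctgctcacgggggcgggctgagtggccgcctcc
Dst, chr1:34011345-34011594, plus strand: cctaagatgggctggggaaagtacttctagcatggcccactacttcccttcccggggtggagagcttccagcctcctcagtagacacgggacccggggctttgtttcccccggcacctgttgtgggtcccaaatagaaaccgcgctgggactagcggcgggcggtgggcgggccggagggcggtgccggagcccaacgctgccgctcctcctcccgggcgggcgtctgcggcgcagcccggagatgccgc
Foxp1, chr6:99028299-99028548, minus strand: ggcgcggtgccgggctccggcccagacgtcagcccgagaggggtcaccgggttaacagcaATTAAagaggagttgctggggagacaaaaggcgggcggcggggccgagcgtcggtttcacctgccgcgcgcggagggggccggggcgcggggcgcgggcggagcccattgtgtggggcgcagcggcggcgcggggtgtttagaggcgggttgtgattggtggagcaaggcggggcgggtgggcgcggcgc
Dhrs3, chr4:144892577-144892826, plus strand: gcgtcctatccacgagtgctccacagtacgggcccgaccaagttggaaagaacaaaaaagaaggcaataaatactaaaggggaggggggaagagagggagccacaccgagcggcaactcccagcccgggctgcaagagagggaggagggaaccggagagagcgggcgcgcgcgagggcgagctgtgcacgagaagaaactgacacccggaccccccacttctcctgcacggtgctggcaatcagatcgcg

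Among the 9 windows shown, the Ltbp1 window holds TTAAT at 2 places, the Foxp1 window ATTAA at 1 place and the Palld window TGANTCA at 1 place, while the other windows shown hold neither word. RefSeq gives 2 more Dhrs3 starts at this region, downstream of the one shown, whose windows lie 91.6% and 67.6% inside it. These 2 windows overlap and hold the same TTAAT. The G and C content of the 9 windows shown ran from 50.8% in the Ltbp1 window to 77.2% in the Gphn window. In the 2 further Dhrs3 windows it was 46.8% and 44.8%. Over the 58 start windows that lie 50% or more inside a long-gene region, 8 (13.8%) hold ATTAA on either strand, against 24.9% of 32851 start windows of the genome, and 3 (5.17%) hold TGANTCA, against 6.75%. The median G and C content was 57.4% in the former and 52.4% in the latter. Windows of neighbouring starts overlap, so 1 word can count in more than 1 window. This holds for the TTAAT of the Dhrs3 windows and for an ATTAA in the windows of the lncRNA gene Gm32703 inside Pde4d. Word matches are descriptions of these letters and not binding sites, and the windows cover only a small part of the long-gene regions.

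Regions were found in 332 of the 557 protein-coding genes longer than 300 kb (59.6%), on 20 chromosomes, and not in the other 225. A host held a median of 4 regions and at most 34. In 78 hosts there was 1 region, and 49 hosts with 10 or more held 698 of the 1700 pairs of region and host (41.1%), with 10 regions inside more than 1 overlapping gene. Foxp1 stood first with 34 regions over its 597 kb on chromosome 6. Its protein is a forkhead transcription factor. It was followed by Lpp with 23, which encodes a focal adhesion protein abundant in smooth muscle, and by Frmd4a with 23, which encodes a FERM-domain scaffold of cell polarity. Rad51b, a gene of homologous recombination, held 20 and Pakap 20. Cacna1c, the pore subunit of the L-type calcium channel that starts smooth muscle contraction, held 19. Pde4d, a cyclic AMP phosphodiesterase, held 18 over 1302 kb. Arhgap26 held 18, Aopep, an aminopeptidase, 18, and Sox5, an SRY-related transcription factor, 17. Stard13 and Gse1 held 16 each. With only peaks of a −log10 q of at least 5, Aopep dropped to 11 regions, the fewest of these 12 hosts, and Foxp1 still led with 25.

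The number of regions did not follow gene length. Across the 557 genes, the Spearman rank correlation of length with the number of regions was -0.03 and with the number per 100 kb -0.17, given as descriptions across genes. Hosts had a median length of 448 kb and genes without a region 460 kb. Of the 59 genes over 1000 kb, 28 had none, among them the 5 longest protein-coding genes of the build, which are Dmd (2390 kb, dystrophin, the membrane linker of the muscle cytoskeleton), Ptprd (2271 kb), Cntnap2 (2241 kb), Lsamp (2197 kb) and Lrp1b (2058 kb). The plot of regions by gene length shows Foxp1 apart from all other genes and a row of neuronal genes at or near 0 on its right side.

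**Figure D1:**
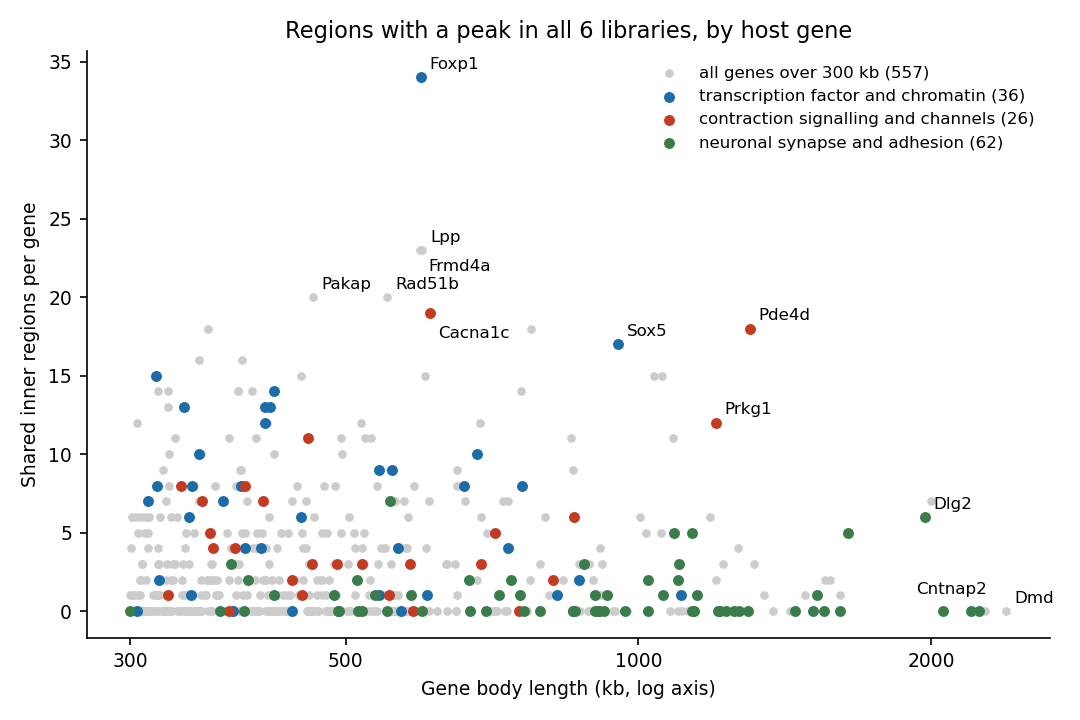
Number of long-gene regions (y axis) against gene body length in kb (x axis, log scale) for the 557 protein-coding genes over 300 kb, 1 point per gene, with transcription factor and chromatin genes in blue, contraction genes in red, neuronal genes in green and the others in grey. Foxp1 has 34 regions, Pde4d 18 at 1302 kb, and Cntnap2 at 2241 kb and Dmd at 2390 kb have 0.

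Density is given as regions per 100 kb of gene interior, which is the gene body without 5 kb at either end. It was 1.18 in genes up to 20 kb and 1.30 to 1.39 in the length classes from 20 to 300 kb. It was 0.796 in genes of 300 to 500 kb, 0.511 in genes of 500 to 1000 kb and 0.193 in genes over 1000 kb. Long genes as a class thus held fewer shared regions per base than shorter genes, and the genes over 1000 kb the fewest. The densest hosts with at least 5 regions were Foxp1 with 5.79 per 100 kb, Aopep with 5.13, Runx2 (a transcription factor of bone and cartilage formation, 15 regions) with 4.86, Gse1 with 4.67, Apbb2 with 4.51 and Pakap with 4.42. These are single genes picked as the densest, whereas the plot by gene length pools all genes of a class. The densest single genes among shorter genes are not given here, so the hosts cannot be ranked against them.

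**Figure D2:**
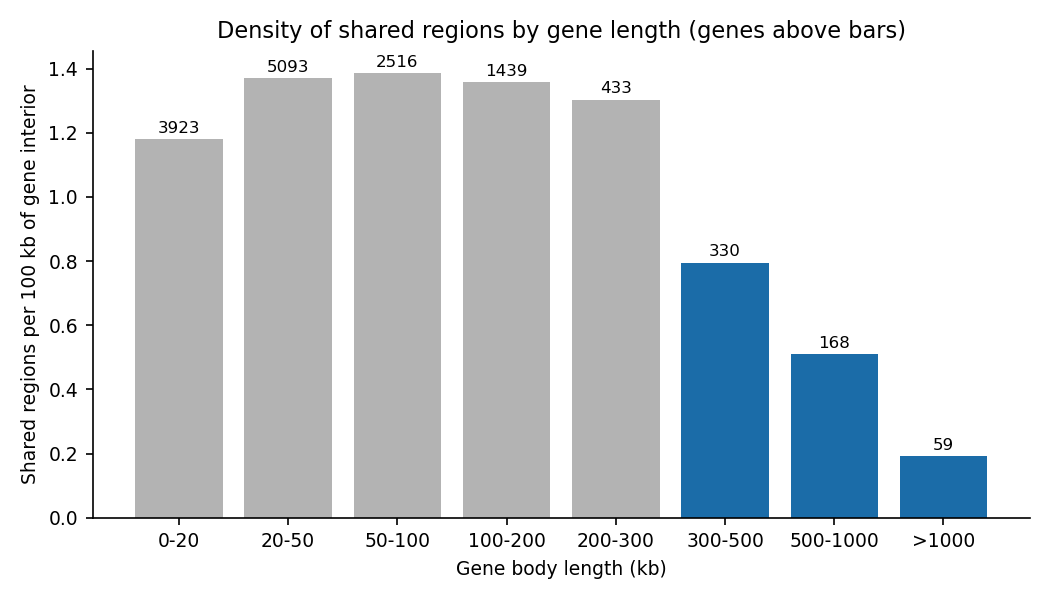
Shared regions per 100 kb of gene interior (bars, y axis from 0) in 8 classes of gene body length in kb (x axis), with the number of genes above each bar. Bars lie between 1.18 and 1.39 up to 300 kb and fall to 0.796, 0.511 and 0.193 in the 3 classes beyond.

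The listed transcription factor and chromatin genes had the highest density of the 7 gene lists. Regions were found in 32 of the 36 such genes over 300 kb, 260 pairs of region and gene in all, or 1.44 per 100 kb against 0.542 over all 557 genes. After Foxp1 and Sox5 came Runx2 with 15, Glis3, a Krüppel-like zinc finger factor, with 14, and the Notch coactivators Maml3 and Maml2 and the corepressor Rere with 13 each. Creb5, a cyclic AMP response element binding protein, held 12. Foxp2, the close relative of Foxp1, held 1 over 541 kb. Sox6, Tshz2, Dach1 and Tox held none.

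The list of calcium, cyclic nucleotide and ion channel genes of contraction had regions in 23 of 26 genes, 136 pairs and 0.935 per 100 kb. Besides Cacna1c and Pde4d, these were led by Prkg1, the cyclic GMP-dependent kinase that relaxes smooth muscle, with 12, and by Akap6, an anchoring protein of protein kinase A, with 11. The inositol trisphosphate receptors Itpr1 and Itpr2, calcium release channels of the sarcoplasmic reticulum, held 8 each, and Kcnma1, the large-conductance potassium channel of smooth muscle, held 5. The ryanodine receptor genes Ryr2 and Ryr3 held 1 and 0.

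Cytoskeleton, adhesion and dystrophin complex genes had regions in 32 of 37 genes, 188 pairs and 0.708 per 100 kb. After Lpp came Dst, a cytoskeletal linker, with 14, Ptprm, a receptor tyrosine phosphatase of cell contacts, with 12 and Elmo1, a regulator of Rac, with 12. Utrn, which encodes the dystrophin relative utrophin, held 8 regions over 488 kb, where Dmd held none over 2390 kb. Sgcd, a sarcoglycan of muscle, held 5 and Sgcz none. The list of large genes of general functions and common fragile sites had regions in 25 of 29 genes at 0.630 per 100 kb, led by Rad51b, by the RNA-binding protein gene Rbms3 with 15, by Atxn1 with 12 and by Fto, an RNA demethylase gene, with 10, while the fragile site genes Fhit and Wwox held 1 and 4.

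Growth factor and signalling genes had regions in 10 of 18 genes and 0.762 per 100 kb, 72 pairs in all. They were led by Frmd4a (23), by Ltbp1 (14), which encodes a protein that stores latent TGF-beta in the matrix, by the neuregulin gene Nrg1 (11) and by Frmd4b (6). Matrix, proteoglycan and guidance genes had regions in 11 of 24 genes, 35 pairs and 0.223 per 100 kb, with 8 in Slit3, 5 each in the glypican gene Gpc6 and the semaphorin gene Sema3a, and 4 in Sema6d. Genes of neuronal synapse and adhesion, listed as genes of another cell type, had regions in 25 of 62 genes, 60 pairs and 0.101 per 100 kb, with 7 in Kirrel3, 6 in Dlg2 and 5 each in Csmd1 and Opcml. No region was found in the neuronal genes Nrxn3 (1612 kb) or Csmd3 (1212 kb). The list is not complete: Syn3, Dlgap2 and Dlgap1, synaptic genes over 300 kb that are not on it, held 15, 14 and 11 regions and were looked up after the values were seen.

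The neuronal genes were also the longest, so the densities were taken again over genes of at most 1000 kb. They were then 1.53 for transcription factors, 0.879 for contraction, 1.15 for the cytoskeleton, 0.826 for large general genes, 0.983 for growth factors, 0.293 for matrix and 0.124 for neuronal genes, against 0.660 over all 498 such genes. The cytoskeleton list moved most, from 0.708 to 1.15, and passed the contraction list in this setting, which was added after the data were seen. The lists were chosen with earlier results of these data known, and the densities are descriptions with no test.

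Hosts also tended to have a peak at the 5′ end of the gene body, which the choice of regions did not use since it left out the outer 5 kb. Strand was known for 425 of the 557 genes. A shared region lay within 1 kb of the 5′ end in 116 of 258 hosts (45.0%), in 59 of 110 hosts with 5 or more regions (53.6%) and in 14 of 167 genes without a region (8.38%). At the 3′ end the counts were 8 of 258 (3.10%) and 0 of 167. Foxp1, Lpp, Rad51b, Aopep, Gse1 and Runx2 had such a peak at the 5′ end, and Frmd4a, Pakap, Cacna1c, Pde4d, Sox5 and Stard13 did not. Of the latter, Frmd4a, Pakap and Stard13 had a shared region over an annotated start inside the gene. A shared region lay over any annotated start in 127 of 258 hosts (49.2%) and 13 of 167 genes without a region (7.78%). Such starts can lie over the long-gene regions themselves, so these shares are not separate from the choice. Gene ends and gene bodies were read from the same libraries, and the share of these cells' expressed genes among hosts was not tested.

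Within the genes the regions leaned to the 3′ side of the midpoint. Of 1351 positions in genes of known strand, 595 (44.0%) lay nearer the 5′ than the 3′ end, and the stretches at 80 to 90 and 90 to 100 percent of the gene held 167 and 150. In genes of 100 to 300 kb, 53.9% of 2906 positions lay nearer the 5′ end. Among the 110 stranded hosts with 5 or more regions, 67 had more on the 3′ side, 36 more on the 5′ side and 7 had equal numbers. Neighbouring regions of a gene were a median of 24.1 kb apart (quartiles 9.28 and 58.2 kb), and 369 of 1368 gaps (27.0%) were shorter than 10 kb. The shortest gap was 42 bp and the longest 836 kb, in Anks1b.

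The maps of 8 hosts show how unevenly the regions sat along single genes. In Frmd4a the first region lay 243 kb from the 5′ end and the other 22 lay beyond it. Sox5 had 9 regions in its first 142 kb, then none for 343 kb, and 8 beyond. Lpp had 15 regions up to 340 kb and 8 from 467 kb on. In Pde4d, not drawn, 2 regions lay within 112 kb of the 5′ end and the other 16 from 582 kb on. The longest gap in Foxp1 was 58.9 kb.

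**Figure D3:**
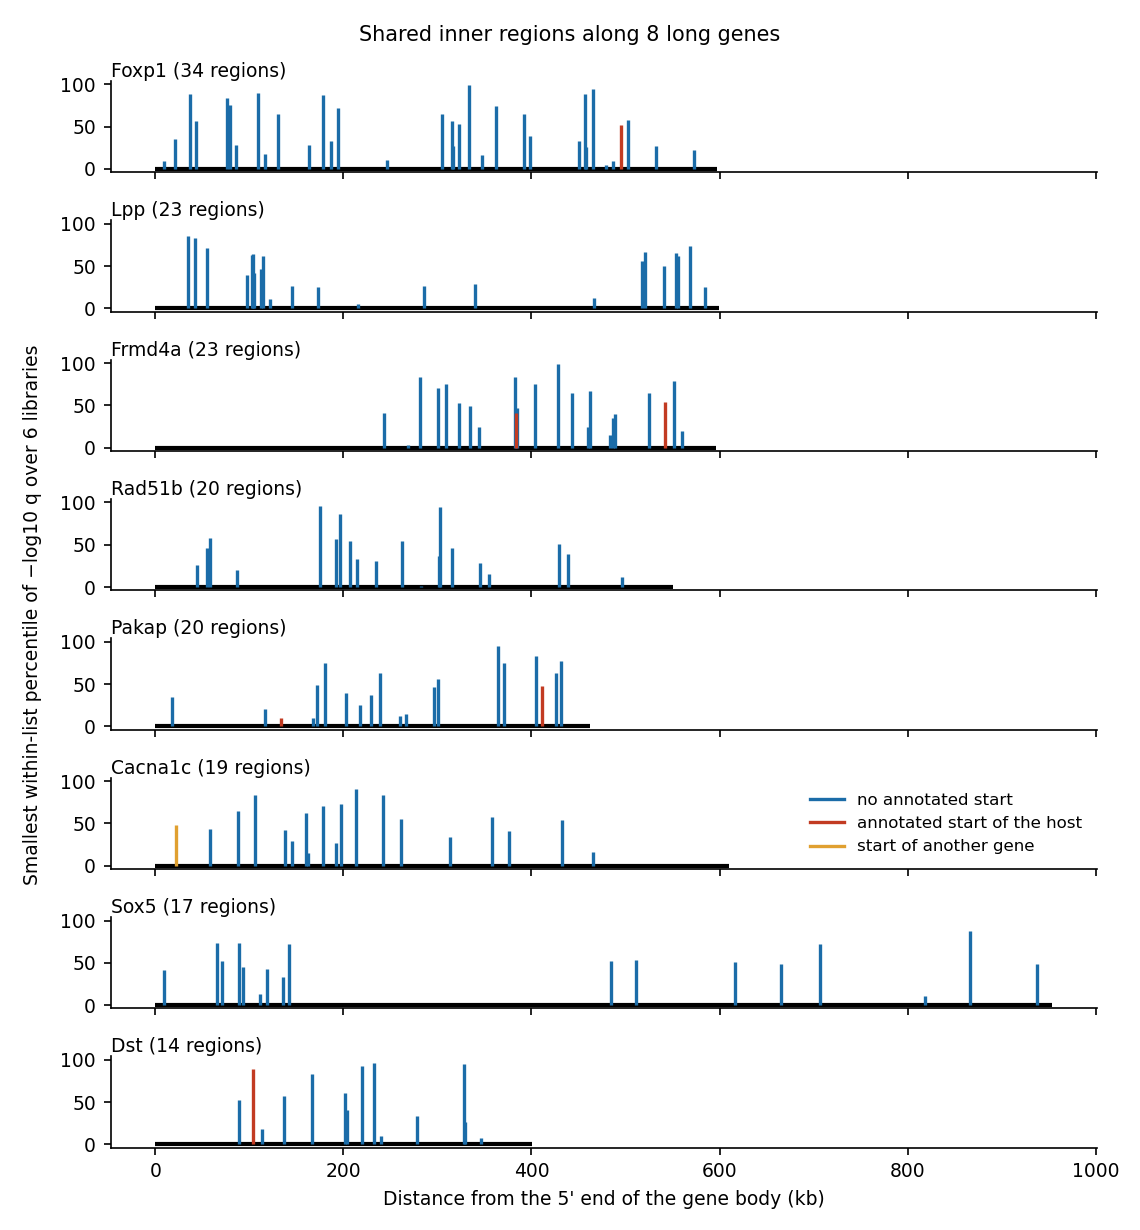
Long-gene regions along Foxp1, Lpp, Frmd4a, Rad51b, Pakap, Cacna1c, Sox5 and Dst, by distance from the 5′ end in kb (x axis). The black bar is the gene body and each vertical line a region, whose height is the smallest of its 6 within-list percentiles of −log10 q, in blue with no annotated start, in red over a start of the host and in orange over a start of another gene. Foxp1 has regions along most of its length, Frmd4a none before 243 kb and Sox5 none between 142 and 485 kb.

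The 34 Foxp1 regions differed widely in strength. Strength is compared as a percentile within each library's own list, because folds and q-values come from separately called lists; where these are printed they describe each list and are not compared between groups. The strongest, chr6:99188358-99189135, lay 334 kb from the 5′ end with no annotated start and held 145, 158 and 138 summit fragments in NC 1 to 3 and 112, 109 and 121 in siRNA 1 to 3. Its percentile of −log10 q was 98.9 or higher in every list. The weakest by its smallest percentile, chr6:99043259-99043845, held 25, 26 and 20 against 13, 16 and 9 fragments and ranged from percentile 4.61 to 65.1 over the lists. The region over the inner Foxp1 start, whose upstream bases are printed above with 1 ATTAA, held 41, 47 and 38 against 28, 25 and 34 fragments, with folds between 4.60 and 6.20 in the 6 lists. It was the widest of the gene at 1673 bp but in the middle of its range of strength. Fragments are printed unscaled unless called scaled, and coverage differed between the libraries. The factors used for scaling below were 1.06 to 1.16 for NC-labelled and 0.824 to 0.986 for siRNA-labelled libraries. A lower unscaled value in the siRNA-labelled libraries is thus not by itself a change between the groups.

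Merged over the 6 libraries, the long-gene regions were 280 to 2262 bp wide with a median of 741 bp (quartiles 616.5 and 905.5 bp), and they covered 1.33 Mb in all. The median width of the peaks themselves was 590, 584 and 573 bp in NC 1 to 3 and 509, 494 and 524 bp in siRNA 1 to 3. The authors' fold, which sets the summit against its local background, had a median of 7.35, 7.48 and 7.33 in the lists of NC 1 to 3 and of 6.80, 7.55 and 7.33 in those of siRNA 1 to 3. The median −log10 q of these lists was 13.3, 14.0 and 12.6, and 9.60, 11.6 and 11.9. The median summit stood at 21 to 23 fragments for NC-labelled and 16 to 19 for siRNA-labelled libraries, over a local background of 1.47 to 2.20 fragments, so single regions carry a large counting error.

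Compared with shared regions of the same kind in genes up to 300 kb (7534 regions), the long-gene regions were slightly narrower, ranked higher by fold and ranked lower by q. Per library, their median width was 15.6 bp ± 2.11 smaller (SD, n = 6 libraries), a mean difference of -15.6 bp, and smaller in 6 of 6 libraries. Their median percentile of fold was 3.23 ± 0.769 points higher, in 6 of 6 libraries, and their median percentile of −log10 q differed by -2.97 ± 0.562 points, lower in 6 of 6. Each had p = 0.03125 (adjusted p = 0.03125) in a two-sided exact permutation test that flips the sign of each library, the smallest p that 6 libraries allow. The same regions were measured in every library. The sign-flip tests here and below thus cover agreement between the libraries and not the spread over regions or genes. The local background beside the summit was 1.47 to 2.20 fragments for the long-gene regions and 2.04 to 2.88 for those of shorter genes, and the summits held 16 to 23 against 20 to 28 fragments. Both the summit and the background were thus lower in long genes, in all 6 libraries.

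Against the 3744 regions in genes of 100 to 300 kb the differences were -7.00 bp, 2.40 points of fold percentile and -2.04 points of q percentile, each in the same direction in 6 of 6 libraries (exact sign-flip p = 0.03125). Against the 8572 shared regions more than 5 kb from any protein-coding gene, the width differed by -3.25 bp and the q percentile by -2.73 points (exact sign-flip p = 0.03125, adjusted p = 0.0469). The fold percentile then differed by -0.622 ± 0.785 points (exact sign-flip p = 0.156) and was higher in 2 of 6 libraries. So by fold the long-gene regions stood above those of shorter genes, and no difference from regions outside genes was detectable. Their share of union regions found in every library was 29.4% (1687 of 5745), against 31.7% in shorter genes and 32.3% outside genes.

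**Figure D4:**
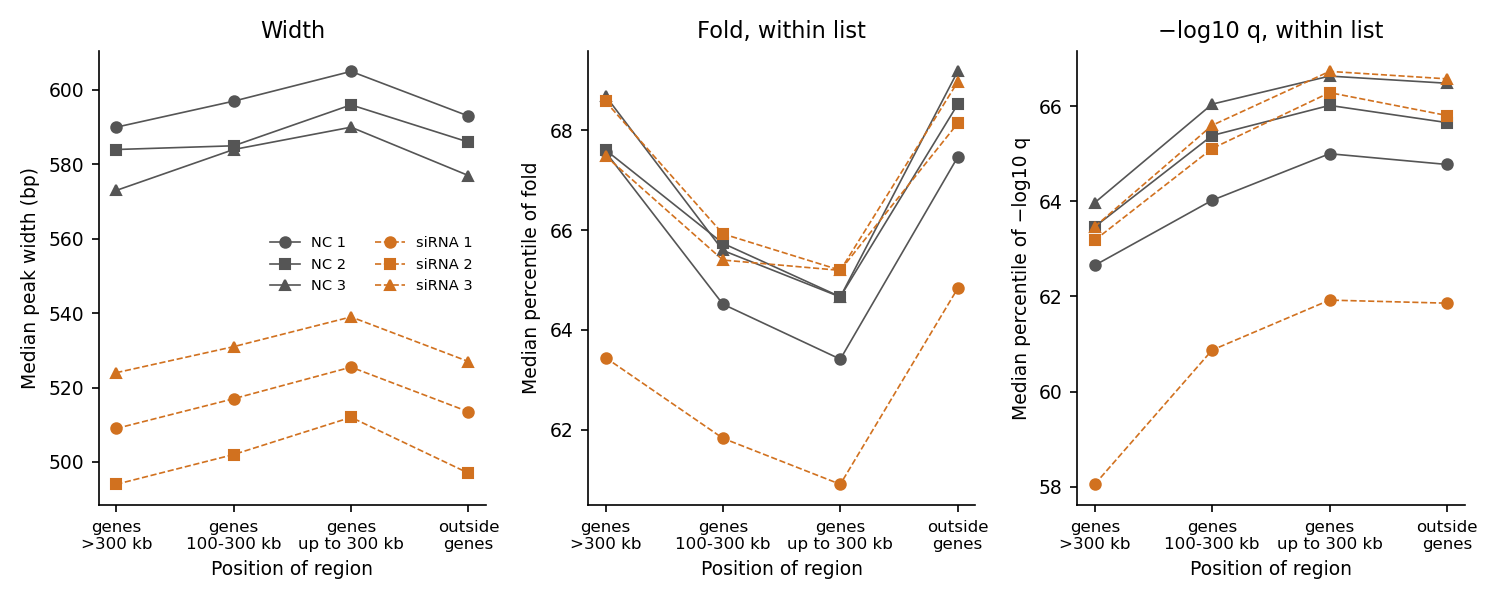
Median peak width in bp, median within-list percentile of fold and median within-list percentile of −log10 q (y axes of the 3 panels) for the long-gene regions and 3 other kinds of shared region (x axis), with 1 line and marker per library, solid for NC-labelled and dashed for siRNA-labelled libraries. The long-gene regions lie above the regions of genes up to 300 kb by fold and below them by −log10 q and width in all 6 libraries, and the siRNA-labelled widths lie below the NC-labelled ones for every kind.

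Some single regions reached the top of every list, though as a set the long-gene regions ranked lower by q than each comparator above. Of the 1687, 50 were at or above the 95th percentile of −log10 q in all 6 lists and 9 at or above the 99th. The median of the smallest percentile was 44.7. The same counts over all shared regions are not given here, so these are not a trait of long genes. The strongest was a 1540-bp region in Maml3, chr3:52045883-52047422, 58.7 kb from the 5′ end, with 335, 331 and 348 fragments in NC 1 to 3 and 283, 281 and 317 in siRNA 1 to 3. Maml2, which encodes a related Notch coactivator, held the next at chr9:13497677-13498397 with 316, 328 and 301 against 246, 267 and 266 fragments. The next 3 lay within 17.4 kb in Dlgap1, a postsynaptic scaffold gene, at chr17:70728660-70729426, chr17:70738103-70739782 and chr17:70745332-70746091, with 186 to 334 fragments each. Arid1b, which encodes an ARID-domain subunit of the SWI/SNF chromatin remodeller, followed with 140 to 205 fragments. All these fragments are unscaled and are not compared between the groups.

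Of these strongest regions, 2 were narrow. The region in Camk1d, a calcium/calmodulin-dependent kinase gene, was 341 bp wide with folds of 28.3 to 34.7, and that in Cmss1 350 bp with folds of 24.3 to 29.3. The other 8 of the 10 strongest, which include Cdh23 and the Foxp1 region above, were 721 to 1680 bp wide with folds of 9.01 to 22.9. By comparison, 37 of the 1687 regions were narrower than 400 bp.

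At annotated starts, 35 of the 58 regions lay over a start of the host itself, in 30 hosts, and 23 only over a start of another gene inside or beside the host, 11 of these protein-coding and 12 lncRNA genes. The share of regions over a start, 3.44%, was 7.42% in genes up to 300 kb, 4.54% in genes of 100 to 300 kb, 3.50% outside genes and 26.1% over all shared regions. Start windows were missing for some hosts, among them Arhgap26, Syn3 and Dlgap2, where no host start could be found. These shares are thus lower limits. The strongest at a host start lay in Gphn, the gene of the scaffold protein gephyrin, at chr12:78225810-78226700, 8.93 kb from the 5′ end, with 124, 153 and 143 against 103, 108 and 119 fragments. Its peaks were 879 to 891 bp wide in all 6 libraries, and the printed window with 77.2% G and C lies inside it.

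The Ltbp1 region at chr17:75178132-75179169 lay 173 kb inside the gene, over the start whose window holds TTAAT at 2 places, and held 105, 106 and 110 against 70, 69 and 81 fragments. The Palld region at chr8:61590654-61591662, over an inner start of the actin-binding protein palladin, held 100, 101 and 94 against 75, 67 and 66. In both, the NC-labelled libraries were above the siRNA-labelled ones before scaling. Scaled for coverage as described below, Ltbp1 stayed apart at 94.1, 91.0 and 103.8 against 85.0, 75.4 and 82.1, while the groups overlapped in Palld at 89.6, 86.7 and 88.7 against 91.0, 73.2 and 66.9. The Sgcd region at chr11:47378995-47379825, 610 kb from the 5′ end, held 61, 63 and 55 against 44, 50 and 51 before scaling. The Dst region at chr1:34011067-34011667 held 63, 57 and 54 against 66, 55 and 65, so here the groups overlapped before scaling. Scaled, it was 56.5, 49.0 and 51.0 against 80.1, 60.1 and 65.9, with every siRNA-labelled library above every NC-labelled one. None of these start regions passed the adjusted threshold (limma adjusted p = 0.395 for Ltbp1, 0.538 for Palld, 0.992 for Sgcd and 0.234 for Dst). Runx2 and Supt3 overlap, and each held a region over the start of the other: chr17:44776768-44777730 with 36 to 54 fragments at the start of Supt3, and chr17:44814266-44815265 with 9 to 19 at the start of Runx2.

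The comparison of siRNA-labelled with NC-labelled libraries asks whether signal at these regions changed with the siRNA against Arid3a. Because a region had to have a peak in all 6 libraries, regions whose peak was lost or gained with the siRNA could not enter. The median peak width was 582 ± 8.62 bp for NC-labelled and 509 ± 15.0 bp for siRNA-labelled libraries (SD, n = 3 each), a difference of -73.3 bp. The groups did not overlap, and the two-sided exact permutation p was 0.1, the smallest that 3 against 3 libraries allow. The same difference was -71.5 bp for regions of genes up to 300 kb, -72.0 bp for genes of 100 to 300 kb and -72.8 bp outside genes, so narrower peaks in the siRNA-labelled libraries were shared by all kinds of region. Coverage also differed between the groups, as given above, and its part in the width was not tested.

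Summit fragments were scaled between libraries by the median ratio over all 29602 shared regions and fitted on the log2 scale after adding 1. The limma fit with Benjamini-Hochberg adjustment called 64 of the 29602 at an adjusted p under 0.05 (0.216%), 37 lower (0.125%) and 27 higher (0.0912%) in the siRNA-labelled libraries. This split rests on the scaling: with libraries scaled by background coverage, 79 were called, 8 lower and 71 higher. Of the 1687 long-gene regions 4 were called (0.237%), a share near that of all regions, 2 lower and 2 higher. At an unadjusted p under 0.05 there were 193 long-gene regions (11.4%) against 3352 of all (11.3%). Every siRNA-labelled library lay below every NC-labelled one in 158 long-gene regions (9.37%, against 8.1% of all) and above in 108 (6.40%, against 7.73%). The median log2 difference was -0.02 in long-gene regions, where the scaling sets that of all shared regions near 0. A fitted value below 0 was found for 54.4% of long-gene regions and, by the same scaling, for 50.2% of all; with background scaling the shares were 38.4% and 33.6%.

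The strongest call lay in Vps13d, which encodes a lipid-transfer protein of mitochondria and peroxisomes. The region chr4:144929651-144930762, 265 kb from the 5′ end, held 78, 70 and 63 fragments in NC 1 to 3 and 35, 32 and 36 in siRNA 1 to 3. Scaled, the means were 63.2 ± 5.86 and 38.0 ± 3.97 (SD, n = 3 each), with a limma log2 difference of -0.72 (SE 0.15, adjusted p = 0.0132). Every siRNA-labelled library lay below every NC-labelled one. Another region of Vps13d fell too, chr4:144892139-144893055, over the start of Dhrs3, a retinaldehyde reductase gene whose upstream bases are printed above. It held 86, 93 and 88 against 50, 48 and 50 fragments, or 80.0 ± 2.99 against 54.6 ± 5.34 scaled, with a log2 difference of -0.55 (limma, SE 0.13, adjusted p = 0.0423). Of the 9 regions in Vps13d, 6 had a fitted value below 0, against 50.2% of all shared regions. In 4 every siRNA-labelled library was below every NC-labelled one and in none the reverse, against 8.1% and 7.73% of all. The median log2 difference of the 9 was -0.31. Vps13d is named for its 2 called regions, which are part of these counts, so the counts add no support to the calls.

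The regions called higher lay in Gse1 and Zbtb7c. In Gse1, which encodes a protein found with the CoREST corepressor complex, the region chr8:120416584-120417304 held 21, 29 and 26 against 33, 34 and 45 fragments, or 22.8 ± 3.41 against 40.9 ± 4.30 scaled, with a log2 difference of 0.83 (limma, SE 0.18, adjusted p = 0.0221). In Zbtb7c, a zinc finger transcription factor gene, chr18:76110309-76111450 held 132, 167 and 140 against 139, 162 and 177. The unscaled values of Zbtb7c overlapped, and it was scaling that set the groups apart, at 131 ± 12.6 and 175 ± 5.64, with a log2 difference of 0.42 (limma, SE 0.09, adjusted p = 0.0327). In Gse1, 12 of 16 regions had a fitted value above 0, where 50.2% of all shared regions lay below 0. In 4 every siRNA-labelled library was above every NC-labelled one, against 7.73% of all. The called region is part of both counts, so they add no support to the call.

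**Figure D5:**
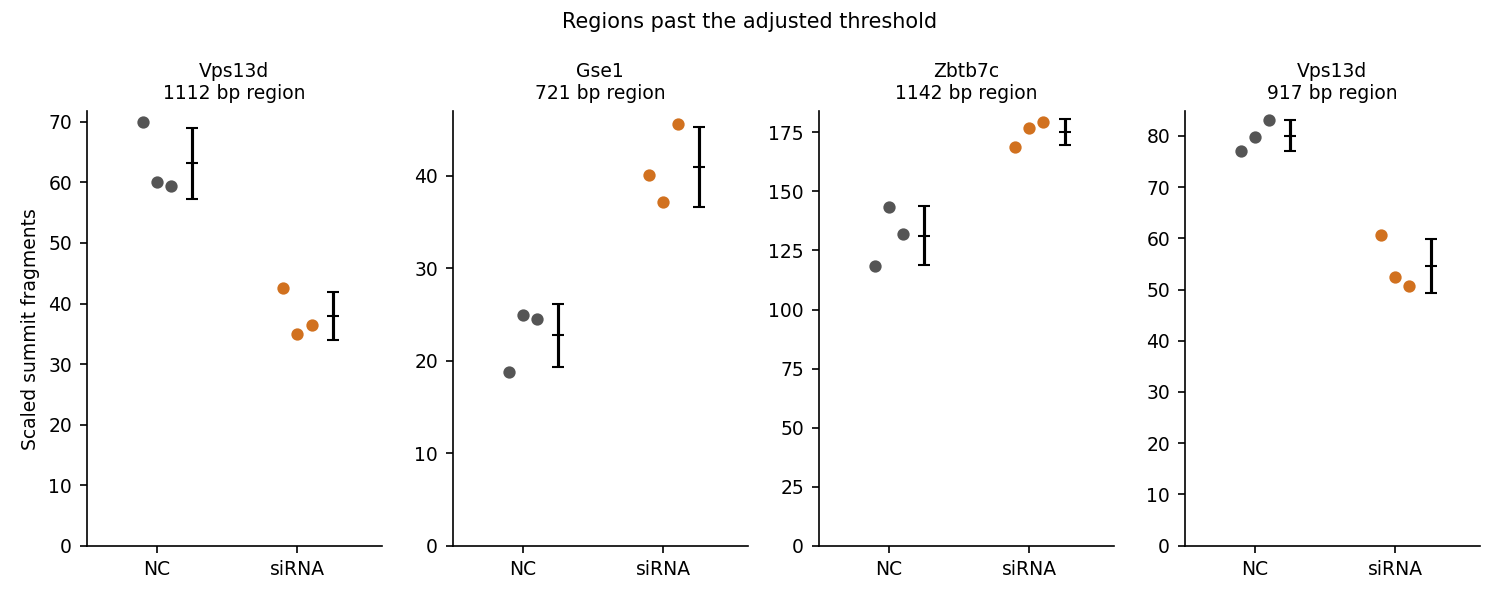
Scaled summit fragments (y axis, from 0) of the 4 long-gene regions called by limma, in 3 NC-labelled and 3 siRNA-labelled libraries (x axis), with 1 point per library and the mean with its SD beside them. Both Vps13d regions are lower in the siRNA-labelled libraries (63.2 to 38.0 and 80.0 to 54.6), and those of Gse1 (22.8 to 40.9) and Zbtb7c (131 to 175) higher.

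None of the 34 Foxp1 regions was called (smallest adjusted p = 0.0998, limma), but 28 had a fitted value below 0, with a median log2 difference of -0.14. Of all shared regions, 50.2% had a fitted value below 0. Every siRNA-labelled library was below every NC-labelled one in 9 of the 34 and above in 0, against 8.1% and 7.73% of all. The 34 regions were measured in the same libraries and are not separate samples. These counts are thus descriptions, and a change over the whole gene was not tested. The lowest adjusted p belonged to chr6:99392394-99393200, with 49, 46 and 43 against 20, 24 and 29 fragments, or 41.3 ± 2.30 against 26.6 ± 2.59 scaled. Scaling libraries by background coverage in place of the median ratio raises the median of all shared regions by 0.09 on the log2 scale. With it, 20 of the 34 Foxp1 regions lay below 0, against 33.6% of all shared regions, and the Foxp1 median was -0.04. The counts of 9 and 0 were made with the median-ratio scaling only. The other hosts with most regions had medians between -0.10 (Pde4d) and 0.14 (Gse1).

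The 4 calls rested on the setting and on single libraries. Background scaling also called 4 long-gene regions, all higher, among them those of Gse1 and Zbtb7c and neither of Vps13d. Without the mean-variance trend limma called 0 of all regions (2974 at an unadjusted p under 0.05, 202 of them long-gene regions). Leaving out NC-labelled library 1, 2 or 3 or siRNA-labelled library 2 left 0 long-gene regions called. Of all shared regions, 10, 17, 14 and 14 were then called. At an unadjusted limma p under 0.05 the long-gene regions numbered 139, 159, 151 and 160 (8.24%, 9.43%, 8.95% and 9.48%). The shares of all shared regions were 8.60%, 9.56%, 9.13% and 9.45%. Leaving out siRNA-labelled library 1, the one with the lowest coverage, gave 18 (1.07%), against 373 of all (1.26%).

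The thresholds of the choice cut through like genes. Just over 300 kb were Zfp423 (300.2 kb, 1 region), Kcnq3 (300.3 kb, 0) and Jazf1 (300.6 kb, 4). Just under it were Akap13 (299.1 kb, 9), Atp2b2 (298.8 kb, 0) and AW554918 (298.6 kb, 2). The regions just inside the distance limit lay 5295 bp from an end of Immp2l and 5422 bp from an end of Pcca, and the nearest outside lay 4852 bp from an end of the overlapping genes Gm37013 and Gm38666. Another 76 shared regions lay inside genes over 300 kb but within 5 kb of an end.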

How the data were processed

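Alignment with Bowtie2 to mm10, a Picard step and peak calling with MACS2 are listed in the submitters' processing notes, without versions or options. The authors deposited a separate peak list for each library, so calls of different libraries are separate. The deposited columns of each peak hold an integer score (not used), a fold (ratio of the summit to its local background), a −log10 p-value, a −log10 q-value and the summit offset (not used).

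Peaks were merged with a 1-bp overlap. Gene bodies came from RefSeq (GRCm38.p6), and strand and sequence from RefSeq start windows, which lack some genes. With 2 or more peaks of a library in a region, the strongest gave its fold, p and q, and widths were summed. Whole summit fragments and the background were solved from fold and p within a relative tolerance of 0.002 for every shared region. The test on simulated data used the formula that is solved, so it cannot show that the deposited columns follow this formula. The solved number is not a deposited count, so no count test was used. limma 3.58.1 in R 4.3.3 (trend, pseudocount 1, adjusted p under 0.05) was fitted to all 29602 shared regions. Single values had exact permutation tests (scipy 1.17.1). The members and gene lists were chosen with earlier results of these data known. Named were the 12 hosts with most regions, the 6 densest, the 5 longest genes, the 4 genes with most regions of each list, the 10 strongest regions, the regions limma called, and the genes nearest the limits; other names, regions over starts included, were chosen after their values were seen. Alternatives were gaps in merging, q, length and distance limits, comparators, scaling, pseudocount, filter, trend, block and leaving out each library. The use of molecular identifiers is not stated, so fragments may not be independent molecules.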

Additional observations from a re-analysis of the deposited data

Results flagged for a closer look

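In 6 of 6 peak lists the name that each peak carries gives the opposite group, under the same number, so the lists labelled NC hold names of the siRNA and the lists labelled siRNA hold names of NC. The names are not part of the measurements compared above. If the names are right and the labels wrong, the direction of every difference between the groups turns, while the regions, their number per gene and their ranks are untouched. Which of them is right was not tested.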

How the results depend on the processing

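The number of regions and hosts was 1687 and 332 with peaks merged up to 100 bp apart, 1214 and 299 at a −log10 q of at least 5, and 1577 and 320 over 20 kb from the ends. Leaving out 1 library gave 1730 to 1847 regions in 333 to 342 hosts. Genes over 200 kb gave 2987 regions in 616 hosts and genes over 500 kb 710 in 131. The differences from shorter genes kept their sign with means over regions, a −log10 q of at least 5 and wider merging. Without 1 library they were -16.3 to -15.1 bp for width, 3.04 to 3.41 points for the fold percentile and -3.09 to -2.78 points for the q percentile, where 5 libraries allow no exact p below 0.0625. Against regions outside genes the fold percentile turned to -0.622. The group difference in width was -80.8 to -65.8 bp without 1 library and -73.3 bp with a replicate block. Called regions numbered 64 in all and 4 in long genes. They were 146 and 9 with a replicate block, for libraries that share only a number (correlations of the deviations of same-numbered libraries 0.04, 0.03 and -0.02), 32 and 1 with siRNA-labelled libraries 2 and 3 averaged into 1 sample, 94 and 7 at a mean of at least 20 fragments, and 0 and 0 with no trend. Without 1 library they were 10 to 373 and 0 to 18. The larger Vps13d region stayed called in 6 of 12 alternatives (adjusted p 0.00132 to 0.320 over them), those of Gse1 and Zbtb7c in 5 each and that at the Dhrs3 start in 4, and none changed sign. The cause of these changes was not tested. With 16 to 23 fragments at a typical summit, small changes were not detectable at this depth.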
